A study of Mus musculus with 1119 samples.

Results

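The Hox genes encode homeodomain transcription factors, and 39 of them lie in 4 clusters in the mouse genome. They were taken here by symbol (Hox, a letter from a to d, a number and nothing after) from the 46609 rows of expression tables of single cells of mouse back skin, and all 39 had a row. Within a cluster the genes are numbered by paralog group, from 1 at one end to 13 at the other. In the embryo, genes of low number act toward the head and genes of high number toward the tail, and adult skin cells keep part of this record of position. Their proteins bind DNA together with the Pbx and Meis cofactors, and Polycomb complexes keep unused members silent. Hoxc13 stands apart in skin: it is known for its part in the hair shaft and nail, where it acts on hair keratin genes. In the assembly mm10 the HoxA cluster (11 genes) spans chromosome 6, 52155590 to 52260880, HoxB (10 genes) chromosome 11, 96194316 to 96368256, HoxC (9 genes) chromosome 15, 102921103 to 103036852, and HoxD (9 genes) chromosome 2, 74668310 to 74765142.

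The series holds 1119 cells, each sequenced on its own by Smart-seq2, a full-length cDNA method, and the authors' annotation divides them into 6 types. All came from back skin of mice carrying reporters for the sort, and no other allele or treatment is given. The telogen bulge (39 cells) and telogen hair germ (71 cells) of P21 came from the resting follicle. The first anagen hair germ (89 cells: 73 of P23-P24 and 16 of P25-P27) and the second anagen matrix (55, 76 and 68 cells of 3 plates, P25-P27) came from the onset of growth. These 4 types carried Lgr5-eGFPiresCreER;R26-tdTomato, were of mixed sex, and were sorted on both reporters and on surface proteins, so the reporters mark Lgr5 cells and what descends from them. The P30 matrix (76, 78, 75, 74 and 81 cells of 5 plates) was sorted from Lhx2-GFP mice on a CD1 background, mixed in sex. The P30 dermal papilla (87, 87, 86 and 77 cells of 4 plates), the mesenchymal signalling centre under the matrix, was sorted from male K14-H2BGFP;LEF1-RFP mice. No label names an animal, so each type counted as 1 sample, no test was possible, and the intervals given cover the counting of cells only.

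Levels are in TPM, a unit scaled by transcript length and to the same total in each cell, which lets genes be compared, and a gene was called seen in a cell from 1 TPM on. The median cell held between 5459 and 7344.5 seen genes by type. Fewer than 1000 genes were seen in 33 papilla wells, against 0 to 4 wells of each other type, and 32 of those 33 wells showed no Hox gene. Ribosomal RNA took a median of 54.3% to 76.4% of TPM by type, most of all in the P30 matrix. All 8 bulge markers were seen in at least 50% of telogen bulge cells, all 6 hair germ markers in at least 50% of telogen hair germ cells, and 9 of 10 papilla markers in at least 50% of papilla cells. Of 8 matrix markers, 1 of them Hoxc13, 6 were that common in the P30 matrix and 2 in the second anagen matrix, whose name is the authors'. Of the 8 bulge markers, 5 were that common in the second anagen matrix, 6 in the telogen hair germ and 7 in the first anagen hair germ. No label records strand, and 10 members share exonic bases with a gene on the opposite strand. Hoxc5 shares exonic bases with Hoxc10 on 1 strand, as Hoxd3 does with Hoxd4, so values of these pairs are uncertain where 1 of them is seen.

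These upstream sequences belong to 3 HoxA genes that papilla cells showed together, set beside Hoxb8 of the HoxB cluster. Each is the 250 bases before an annotated start site, 5′ to 3′ on the strand of the gene, from the RefSeq table of build GRCm38.p6, with CG pairs in capitals. They lie at chr6:52204588-52204837 (minus strand, Hoxa5), chr6:52227371-52227620 (minus, Hoxa9), chr6:52240855-52241104 (minus, Hoxa10) and chr11:96281655-96281904 (plus, Hoxb8).
Hoxa5: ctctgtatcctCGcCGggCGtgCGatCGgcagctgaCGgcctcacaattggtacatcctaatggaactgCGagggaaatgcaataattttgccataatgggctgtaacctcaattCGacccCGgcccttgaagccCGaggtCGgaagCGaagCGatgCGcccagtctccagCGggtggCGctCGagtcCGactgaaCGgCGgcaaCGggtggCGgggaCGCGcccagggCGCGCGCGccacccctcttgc
Hoxa9: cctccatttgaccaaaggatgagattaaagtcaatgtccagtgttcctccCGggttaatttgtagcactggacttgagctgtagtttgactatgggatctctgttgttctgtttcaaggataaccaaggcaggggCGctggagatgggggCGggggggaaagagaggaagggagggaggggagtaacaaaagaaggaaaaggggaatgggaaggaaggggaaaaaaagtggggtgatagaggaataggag
Hoxa10: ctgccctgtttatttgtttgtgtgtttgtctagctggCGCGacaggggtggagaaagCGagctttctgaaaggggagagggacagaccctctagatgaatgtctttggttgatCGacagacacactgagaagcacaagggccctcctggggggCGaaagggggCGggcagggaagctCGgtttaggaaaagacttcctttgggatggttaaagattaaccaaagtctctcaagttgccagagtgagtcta
Hoxb8: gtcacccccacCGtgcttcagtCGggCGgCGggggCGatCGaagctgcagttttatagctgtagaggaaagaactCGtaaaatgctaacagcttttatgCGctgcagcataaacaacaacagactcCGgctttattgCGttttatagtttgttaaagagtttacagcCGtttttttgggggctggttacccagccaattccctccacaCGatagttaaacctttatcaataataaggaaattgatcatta
None of these 4 stretches overlaps an annotated exon. That of Hoxa9 lies inside the Hoxa9 gene (chromosome 6, 52223100 to 52231089). That of Hoxa5 lies inside the Hoxa3 gene (chromosome 6, 52169062 to 52213336) and also overlaps the genes Gm28308 and Hoxaas3. Those of Hoxa10 and Hoxb8 overlap no annotated gene. The table held 24 entries for 22 members. Hoxa5 held 28 CG pairs, Hoxb8 held 12, Hoxa10 held 7 and Hoxa9 held 3, against a median of 12.5 over the 24 entries and 6.0 over 32851 upstream stretches of the same length. The other Hoxa10 entry, not printed, held 20. The joint Pbx and Hox motif TGATNNAT, searched on both strands, stood in 4 of the 24 entries (Hoxa2, Hoxb1, Hoxb8 and 1 of Hoxd11) and in 7.68% of all stretches. The TATA box TATAAA, also searched on both strands, stood in 4 of the 24 (Hoxa10, Hoxb8, Hoxd13 and Hoxd4) and in 12.4% of all stretches, and the Hoxa10 match is in another entry than the one printed.

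Of the 39 members, 25 reached 10% of cells in 1 type or more, 14 of these reached 30%, and Hoxa13, Hoxb13 and Hoxd12 were listed at 0 in every cell. By type, the members that reached 10% numbered 18 in the telogen bulge, 15 in the telogen hair germ, 18 in the first anagen hair germ, 16 in the second anagen matrix, 14 in the P30 matrix and 16 in the papilla. From 5 TPM on, the 6 counts were 15, 11, 13, 11, 7 and 13, and at 20% of cells 13, 12, 12, 11, 7 and 8, lowest in the P30 matrix under both. At any TPM above 0 they were 18, 16, 18, 17, 16 and 17, the P30 matrix level with the telogen hair germ. The same counts came from TPM rescaled without ribosomal RNA, spike-in and mitochondrial rows. In the 5 epithelial types the members that reached 10% were mostly of HoxA and HoxB. Hoxc13 and, in both anagen groups of P23 to P27, Hoxb9 were their only genes of groups 9 to 13. In the papilla they were 6 HoxC, 3 HoxD, 4 HoxB and 3 HoxA genes, among them Hoxa9, Hoxa10, Hoxc9 and Hoxc10. A single cell showed few of them: the median was 6 Hox genes in the telogen bulge and telogen hair germ, 5 in the first anagen hair germ and the papilla, and 4 in both matrix types, with a range from 0 to 16 over all cells.

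**Figure D1:**
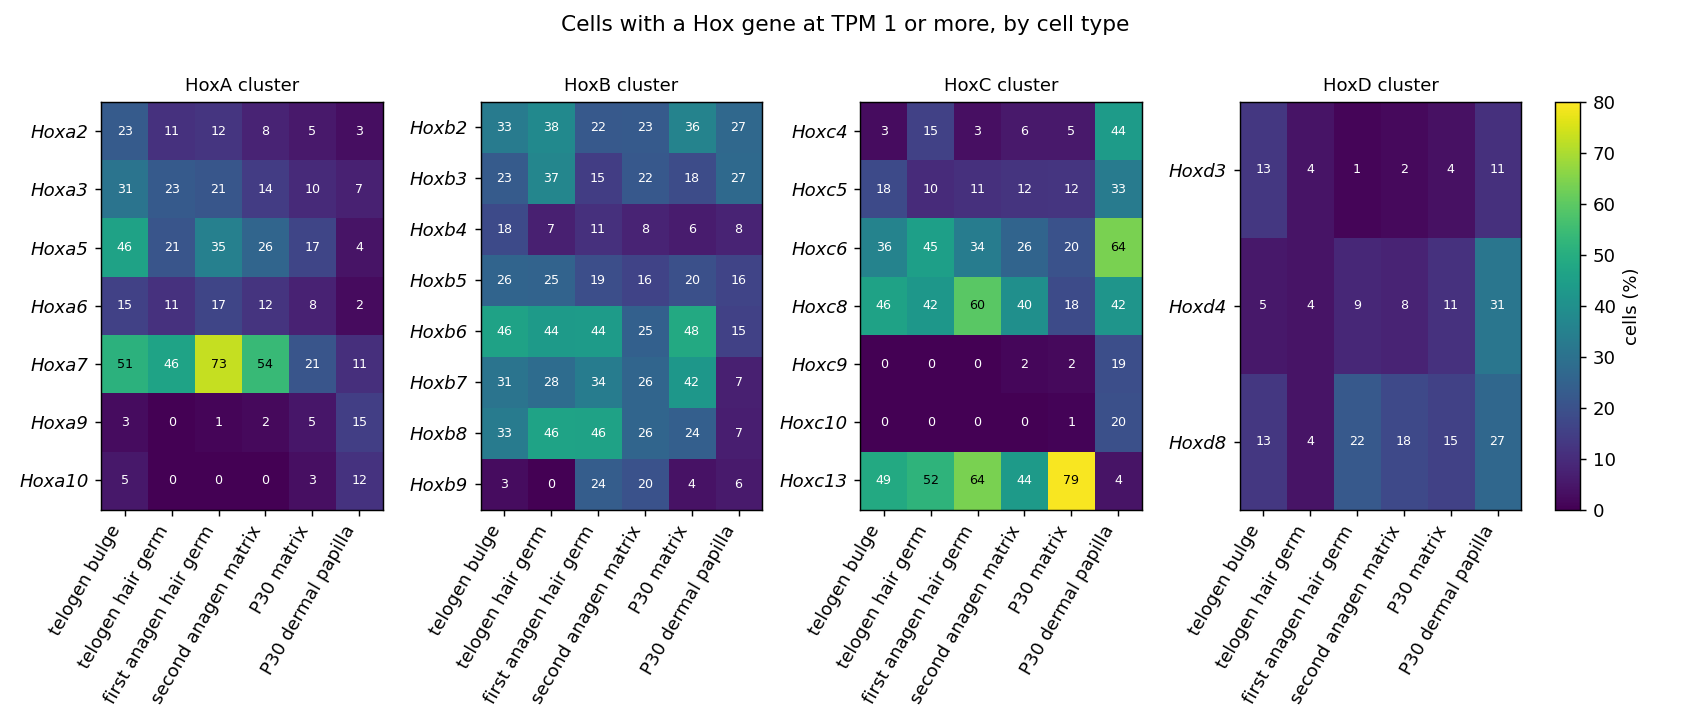
Share of cells (%, colour and number in each field) in which each of the 25 Hox genes that reached 10% in 1 type or more was seen, in the 6 cell types, 1 panel for each cluster with paralog groups rising downward. Hoxc13 reached 79.2% in the P30 matrix and 4.2% in the papilla, whereas Hoxc9 and Hoxc10 were seen in 19.3% and 19.6% of papilla cells and in at most 2.1% of cells of each other type.

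At the anterior end, groups 1 to 4, Hoxb2 was the member most often seen in each epithelial type. It and Hoxb3 are known from the patterning of the hindbrain. Hoxb2 was seen in 38.03% of telogen hair germ cells (interval 26.8 to 50.3), 33.3% of telogen bulge cells, 35.7% of P30 matrix cells, in 91 papilla cells (interval 22.3 to 32.1), and in 22.5% and 22.6% in the first anagen hair germ and second anagen matrix. Hoxb3 was highest in the telogen hair germ too (36.6%), with 14.6% to 27.3% elsewhere. The intervals of these neighbours in the order mostly overlapped. Hoxa3 ran from 30.8% of telogen bulge cells (17.02 to 47.6) to 9.6% of P30 matrix cells (6.9 to 13.04) and 7.4% of papilla cells. Hoxa2 was most often seen in the telogen bulge (23.1%), as were Hoxb4 (17.9%) and Hoxd3 (12.8%, against 10.98% in the papilla). Hoxc4 and Hoxd4 had the opposite profile. Hoxc4 was seen in 43.9% of papilla cells (38.5 to 49.4) and 15.5% of telogen hair germ cells. In the other 4 types it was at 2.6% to 5.5%. Hoxd4 was seen in 31.5% of papilla cells and 4.2% to 11.5% of epithelial cells. Hoxd4, like Hoxd3, shares exonic bases with Hoxd3os1 on the opposite strand. Hoxd3os1 was seen in 44.2% of papilla cells and 5.6% to 14.6% of cells of the epithelial types. Its part in the Hoxd4 values was not tested.

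The mean of Hoxb2 in the papilla rested on 1 well. It was 144.9 TPM over all cells and 2.69 TPM without that well, in which Hoxb2 stood at 47938 TPM, 4.79% of the well's total, with 8 genes seen in all. The next highest papilla cell stood at 39.4 TPM. Differences between types were therefore taken from shares of cells and mean log2 values, to which such a well adds little.

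Groups 5 to 8, the trunk level of the code, were seen in most cells of every type: from 79.2% of P30 matrix cells to 96.6% of first anagen hair germ cells showed at least 1 of them. Hoxa7 led in the early epithelium. It was seen in 73.03% of first anagen hair germ cells (62.6 to 81.9; lowest 0, median 7.09 and highest 63.6 TPM), 53.8% of second anagen matrix cells, 51.3% of telogen bulge cells and 46.5% of telogen hair germ cells. In the P30 matrix it was at 21.1% (17.1 to 25.5; median 0, highest 120.1 TPM) and in the papilla at 10.7%, and both intervals lay below those of the 4 earlier types. Hoxa7 shares exonic bases with Hoxaas3 on the opposite strand, and Hoxaas3 itself was seen in 4.5% to 17.9% of cells by type. Hoxa5, best known from the development of the lung and the neck, was most frequent in the telogen bulge (46.2%, 30.1 to 62.8), followed by the first anagen hair germ (34.8%), second anagen matrix (26.1%), telogen hair germ (21.1%), P30 matrix (16.7%) and papilla (4.2%). Hoxa6 was seen in at most 16.9% of a type, the first anagen hair germ.

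The HoxB genes of these groups were frequent in the epithelium, the P30 matrix included. Hoxb6 was seen in 48.4% of P30 matrix cells (43.3 to 53.6; median 0.59, highest 37.5 TPM), 43.7% to 46.2% of the telogen types and the first anagen hair germ, 24.6% of second anagen matrix cells (18.8 to 31.2) and 15.4% of papilla cells. Hoxb7 was likewise highest in the P30 matrix (42.4%, 37.4 to 47.6) and lowest in the papilla (7.1%, 4.6 to 10.4). Hoxb8 was seen in 46.5% of telogen hair germ cells, 46.1% of first anagen hair germ cells and 33.3% of telogen bulge cells, then in 26.1% and 24.2% of the second anagen and P30 matrix and 6.8% of the papilla. Hoxb5 ran from 25.6% in the telogen bulge to 16.1% in the second anagen matrix and 16.3% in the papilla. Of the HoxC genes of these groups, 2 were most frequent in the papilla. Hoxc6, which is known from the thoracic region, was the most frequent Hox gene of the papilla (63.8%, 58.4 to 68.9; lowest 0, median 5.21 and highest 79.5 TPM) and was seen in 20.1% (P30 matrix) to 45.1% (telogen hair germ) of epithelial cells. Hoxc5 was seen in 33.2% of papilla cells and 9.9% to 17.9% of epithelial cells. Hoxc8 was seen in 59.6% of first anagen hair germ cells, 41.8% of papilla cells and 18.2% of P30 matrix cells (14.5 to 22.5). Hoxd8 was most frequent in the papilla (26.7%) and the first anagen hair germ (22.5%).

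Beyond group 8, Hoxb9 was most frequent in the early anagen epithelium. It was seen in 0 of 71 telogen hair germ cells, which allows a share of up to 4.23%, in 1 of 39 telogen bulge cells, and in 23.6% of first anagen hair germ cells (15.2 to 33.8) and 20.1% of second anagen matrix cells (14.8 to 26.3). In the P30 matrix it was at 3.9% (2.2 to 6.4). Plates did not share this evenly. In the second anagen matrix, Hoxb9 was seen in 44.7% of 76 cells of plate 915mat, 8.8% of 68 cells of 920mat and 0 of 55 cells of 914mat. In the first anagen hair germ it was seen in 20.5% of plate 902hg (73 cells) and 42.9% of 913hg (14 cells). Plate 915mat also had the highest shares of the 3 matrix plates for Hoxd8 (35.5%, against 9.1% and 4.4%), Hoxd4 (18.4%, against 1.8% and 1.5%) and Hoxc13 (61.8%, against 25.5% and 38.2%), although its median of 5312 genes per cell lay between those of the others (5160.0 and 6093). The part that the plate had in these values was not tested.

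Groups 9 and 10 were most frequent in the papilla, where 45.99% of cells (40.6 to 51.5) showed at least 1 of these genes, against 0% to 24.7% of cells of the epithelial types. Hoxc10 was seen in 19.6% of papilla cells (15.5 to 24.2; median 0, highest 43.6 TPM), Hoxc9 in 19.3%, Hoxa9 in 14.8% and Hoxa10 in 11.6%. In the embryo these genes act at lower trunk levels and in the limbs. Hoxc10 was not seen in any cell of the 4 earlier types, which allows a share of up to 1.51% in the largest of them, the second anagen matrix, and was seen in 3 P30 matrix cells (0.78%). Hoxc9 was not seen in the telogen or first anagen types either. In the telogen hair germ, 0 of 71 cells showed any gene of groups 9 and 10. Plate DP6 had the highest papilla share of Hoxa9 (29.9%, against 8.0% to 11.6% of the other 3 plates) and Hoxa10 (22.1%, against 5.8% to 10.3%), whereas Hoxc10 ran from 16.3% to 23.4% over the 4 plates. Hoxd9 stayed under 10% in every type, at 8.0% of papilla cells. Members of groups 11 to 13 other than Hoxc13 were seen in at most 5.1% of the cells of any type.

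**Figure D2:**
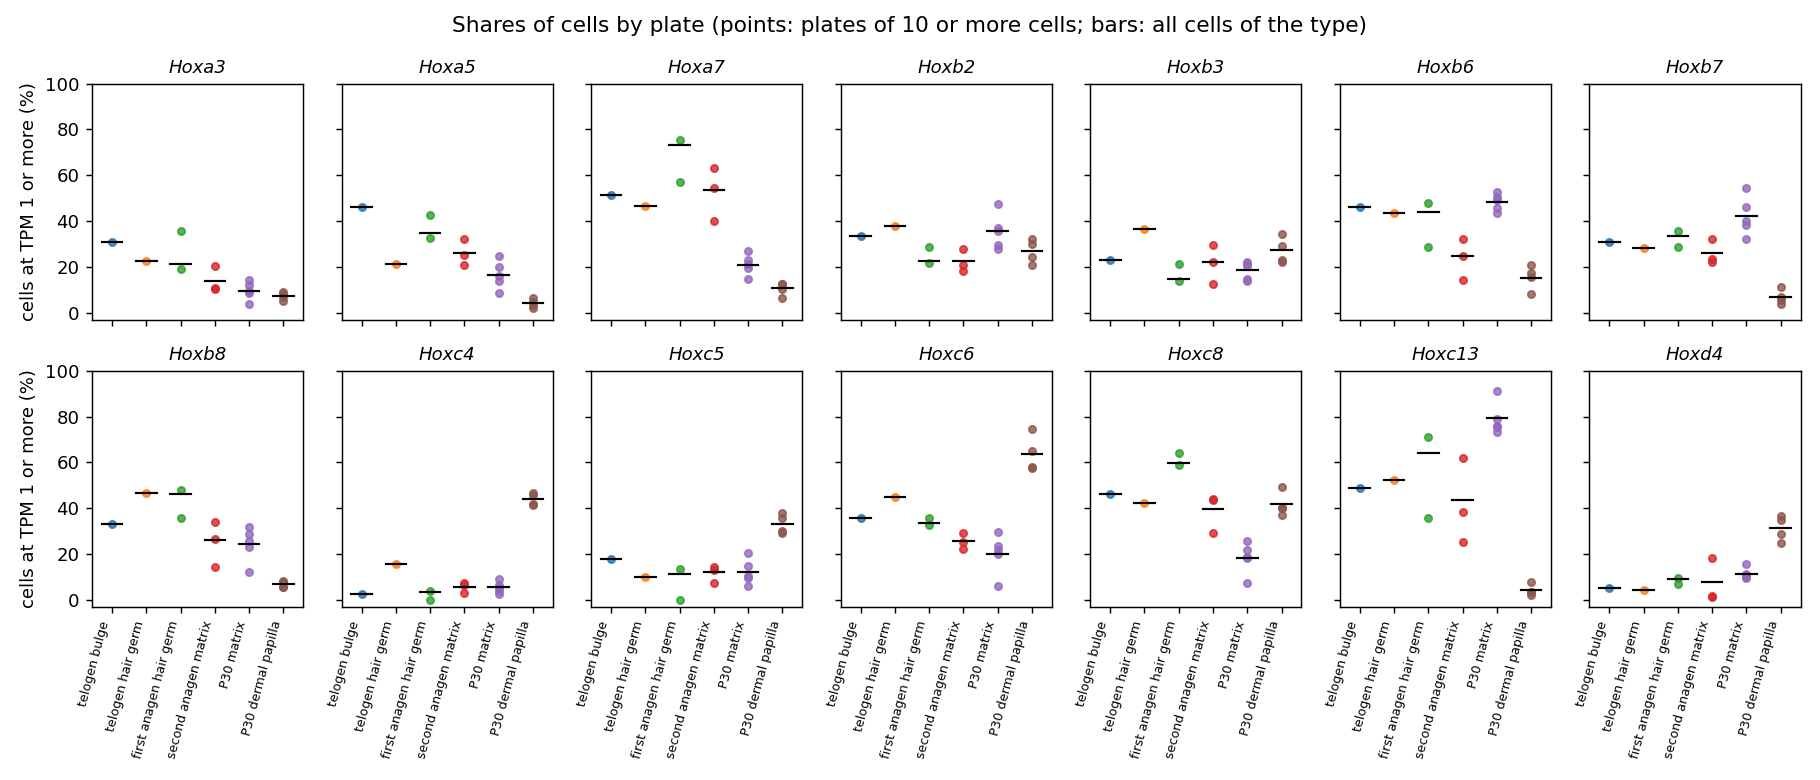
Percentage of cells in which the 14 Hox genes were seen that reached 30% in 1 type, by cell type. Points are plates of 10 or more cells and black bars are all cells of the type. The 4 papilla plates sat between 57.5% and 74.7% for Hoxc6, above each epithelial plate, and the 3 second anagen matrix plates were spread from 25.5% to 61.8% for Hoxc13.

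Over the 5 P30 matrix plates, Hoxb6 ran from 43.6% to 52.6%, Hoxb7 from 32.4% to 54.3%, Hoxb2 from 21 of 75 cells to 47.4%, Hoxb8 from 12.3% to 24 of 75 cells, and Hoxa7 from 14.8% to 26.9%. Over the 4 papilla plates, Hoxc4 ran from 41.4% to 46.8%, Hoxc5 from 29.1% to 37.9%, Hoxd4 from 24.7% to 36.8%, Hoxc8 from 37.2% to 49.4%, Hoxb3 from 22.1% to 34.5% and Hoxb2 from 20.8% to 32.2%. For Hoxc4, Hoxc5 and Hoxd4 no papilla plate overlapped a P30 matrix plate, the highest of which stood at 9.0%, 20.5% and 15.8%. The 3 plates of the second anagen matrix stood at 22 of 55 cells, 63.2% and 54.4% for Hoxa7, 14.5%, 19 of 76 cells and 32.4% for Hoxb6, and 14.5%, 34.2% and 26.5% for Hoxb8 (914mat, 915mat and 920mat), with Hoxa3 from 10.5% to 20.6% and Hoxa5 from 21.1% to 32.4%.

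Hoxc13 (chromosome 15, 102921103 to 102928814, plus strand) was the most frequent Hox gene of the P30 matrix and of the telogen hair germ. It was seen in 79.2% of P30 matrix cells (74.8 to 83.1; lowest 0, median 27.4 and highest 159.03 TPM), with a mean of 35.03 TPM. The first anagen hair germ had it in 64.04% of cells (53.2 to 73.9; median 3.45, highest 57.6 TPM), the telogen hair germ in 52.1% (39.9 to 64.1; median 2.0, highest 41.02 TPM), the telogen bulge in 48.7% (32.4 to 65.2; median 0, highest 39.6 TPM) and the second anagen matrix in 43.7% (36.7 to 50.9; median 0, highest 91.4 TPM). In the papilla it was seen in 4.2% of cells (2.3 to 6.9; highest 19.5 TPM). The P30 matrix interval lay above all others and the papilla interval below all others. The intervals of telogen bulge, telogen hair germ and second anagen matrix overlapped. That of the first anagen hair germ overlapped those of both telogen types and lay above that of the second anagen matrix. Means of the 4 earlier types were between 6.98 and 10.8 TPM. By plate the share ran from 73.3% to 91.4% in the P30 matrix, with plate P2-1 highest, from 25.5% to 61.8% in the second anagen matrix, and was 71.2% in 902hg and 35.7% in 913hg. Plate P2-1 also had the lowest shares of Hoxc6 (6.2%, against 21.6% to 29.5% of 3 plates and 15 of 75 cells of P1-5) and Hoxc8 (7.4%, against 18.4% to 25.6%), with a median of 8037 genes per cell, the highest of the 5 plates.

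**Figure D3:**
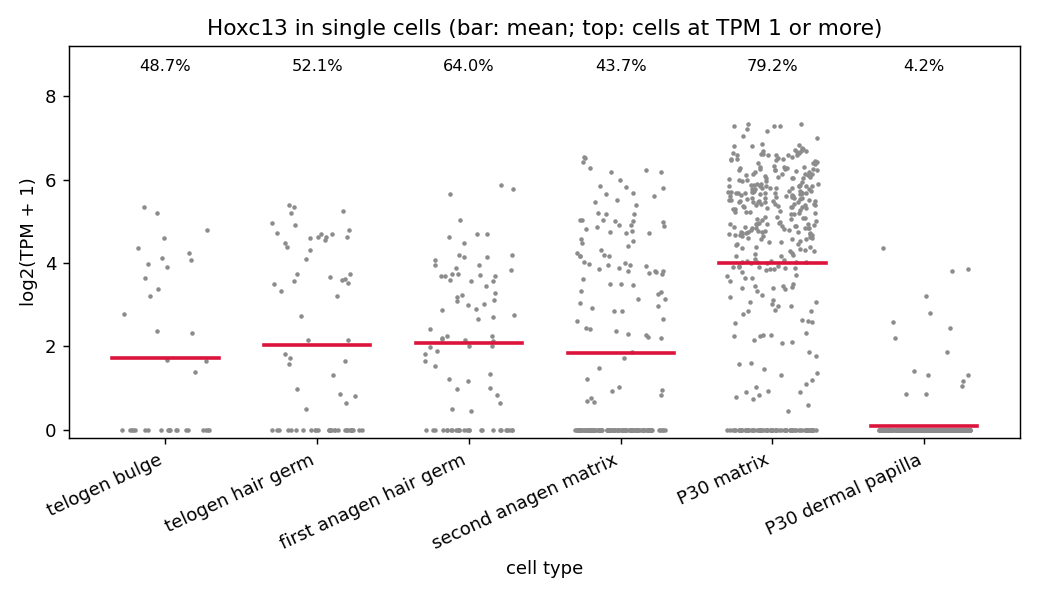
Hoxc13 in each cell as log2(TPM + 1) by cell type. Each point is 1 cell, red bars are means and the numbers on top are shares of cells in which it was seen. P30 matrix cells reached 159.03 TPM and it was seen in 79.2% of them, against 4.2% of papilla cells.

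Within the P30 matrix, Hoxc13 was more frequent in cells that showed genes of the differentiating shaft and inner root sheath. Cells with Krtap8-1, a keratin-associated protein of the hair shaft, showed Hoxc13 in all but 3 of 150 (interval 94.3 to 99.6; mean 54.6 TPM), and cells without it in 67.1% (60.7 to 73.1; mean 22.5 TPM). Cells with Tchh, which encodes trichohyalin, showed it in 90.9% (86.1 to 94.4), against 65.3% (57.8 to 72.3) without. With Lgr5, a stem and progenitor receptor, the share was 70.9% of 55 cells, against 80.5% without, and the mean was 12.3 against 38.8 TPM. Of cells with the proliferation gene Mki67 80.6% showed Hoxc13 (74.5 to 85.8), and of those without it 77.5% (70.7 to 83.4), so that the intervals overlapped. Cells with the melanocyte gene Mlana showed Hoxc13 in 91.4%, against 69.05% of the 210 without. Melanocyte markers were common in this type, since 50.8% of cells showed at least 3 of the 6, with a summed level from 0 to 17014 TPM and a median of 28.4 TPM. The type also held 42 cells with muscle and pericyte markers and 72 with few of the other matrix markers, where Hoxc13 was rarer (below). The part of such cells in these shares was not tested. The median number of genes was 7730.5 with and 6942.5 without Krtap8-1, and its part in these shares was not tested. These genes were chosen after values had been seen.

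Ranked by Spearman correlation of TPM over the P30 matrix cells, the 5 genes most like Hoxc13 among 8462 were Trim29 (rho 0.82), Bambi (0.79), Unc5b (0.78), Foxq1 (0.75) and Tgm3 (0.73). Foxq1 is a forkhead factor of the hair shaft and Tgm3 a transglutaminase of hair and root sheath. The median over the ranked genes was 0.06, and that of Hoxc13 with the number of genes per cell was 0.10. The points are cells of 1 type and share libraries and depth. Cells with muscle and pericyte markers or with few matrix markers are among them, and their part in these values was not tested. From a list of 19 hair shaft genes, Msx2 and Padi3 stood at 0.67, Krtap8-1 at 0.52, Dlx3 at 0.52 and Lef1 at 0.43. The hair keratin genes Krt35 and Krt83, each seen in 38.5% of cells, stood at 0.25 and 0.28, and Krt33b and Krt34, seen in 2.6% and 1.0%, at -0.02 and -0.09. For Hoxc6 over the papilla cells the 5 most alike of 6506 genes were Gnai1 (0.39), Sfrp1 (0.39), Ssr1 (0.38), Ddx26b (0.37) and Fgf10 (0.36). Here the median gene already stood at 0.14 and the number of genes per cell at 0.24, so these values are weak.

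Between types, differences are given as the mean log2(TPM + 1) of the first less that of the second, and those of at least 1 were counted among genes that reached 10% of cells in either type. For telogen bulge against telogen hair germ, 19 members could be counted and 0 passed in either direction, where 3.02% of 12820 genes were higher and 5.77% lower. Hoxa5 had the largest difference (0.80), and Hoxb8 stood at -0.49. After ribosomal RNA, spike-in and mitochondrial rows were left out and TPM rescaled, Hoxa5 stood at 1.17. Hoxb4, Hoxc5, Hoxd3 and Hoxd8 could be counted only through their share in the telogen bulge, so that their direction was fixed. So was that of Hoxc4, counted only through the telogen hair germ. For first anagen against telogen hair germ, again 0 of 19 members passed, where 4.91% of 12956 genes were higher and 5.05% lower (10.2% and 6.1% after rescaling). Hoxb9 (0.82) and Hoxa7 (0.80) were the highest and Hoxb3 (-0.77) and Hoxb2 (-0.73) the lowest. Hoxb4, Hoxb9, Hoxc5 and Hoxd8 could be counted only through their share in the first anagen hair germ, so that their direction was fixed. The same held for Hoxc4 through the telogen hair germ. After rescaling Hoxb9 (1.22), Hoxa7 (1.35) and Hoxb3 (-1.05) passed, with a shift of 0.11 in the median gene. For second anagen matrix against first anagen hair germ, 0 of 18 members passed, where 0.646% of 12533 genes were higher and 6.04% lower. Hoxb6 (-0.60) and Hoxb8 (-0.54) were lowest. Hoxa2 and Hoxb4 could be counted only through their share in the first anagen hair germ, so that their direction was fixed.

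For P30 matrix against second anagen matrix, in which strain, sort, age and table change together and cannot be told apart, Hoxc13 was higher (2.16) and Hoxa7 lower (-1.59). These were 1 of 17 members higher, where 8.29% of 13334 genes were, and 1 of 17 lower, where 4.21% were, so the counts were near those of all genes. Hoxc8 (-0.77), Hoxb6 (0.58) and Hoxb9 (-0.55) followed. Hoxa3, Hoxa6 and Hoxb9 could be counted only through their share in the second anagen matrix, so that their direction was fixed. The same held for Hoxd4 through the P30 matrix. Rescaling moved the median gene by 0.31, to 27.3% of genes higher and 4.9% lower. The 2 members stayed past 1 (3.08 and -2.21) and Hoxb6 (1.08) and Hoxc8 (-1.13) joined them. Hoxa7 and Hoxc8 were thus lower in the P30 matrix while 72.7% of all genes were higher there.

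For papilla against P30 matrix, with strain, sort and table changing along with the cell type, Hoxc6 (1.79) and Hoxc4 (1.12) were higher and Hoxc13 (-3.89) and Hoxb7 (-1.01) lower. These were 2 of 20 members higher, where 7.79% of 14020 genes were, and 2 of 20 lower, where 21.3% were. Of the 20 members, Hoxa9, Hoxa10, Hoxc4, Hoxc9, Hoxc10 and Hoxd3 could be counted only through their share in the papilla, and Hoxa5, Hoxb7, Hoxb8 and Hoxc13 only through theirs in the matrix, so that their direction was fixed. Hoxc5 (0.86), Hoxc8 (0.82), Hoxd4 (0.63), Hoxc10 (0.56) and Hoxc9 (0.50) came next on the higher side, and Hoxb6 (-0.80) and Hoxb8 (-0.50) on the lower side. Hoxb7 no longer passed when the papilla wells under 1000 genes, or plate DP2, DP6, P1-3 or P2-1, were left out, which left 3 members. Rescaling moved the median gene by -0.29, with 9.5% of genes higher and 38.6% lower, and 8 members then passed: Hoxc4 (1.88), Hoxc5 (1.28), Hoxc6 (2.66), Hoxc8 (1.28) and Hoxd4 (1.01) higher, Hoxb6 (-1.47), Hoxb7 (-1.75) and Hoxc13 (-5.57) lower.

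In the papilla, Hoxa9, Hoxa10, Hoxc9 and Hoxc10 were often seen in the same cells, and Hoxb6 mostly in others. Of 66 papilla cells with Hoxc10, 31 also showed Hoxa10 (46.97%, 34.6 to 59.7), against 8 of the others (2.95%, 1.3 to 5.7), although the genes lie on different chromosomes. Hoxa9 was seen in 29 of the 66 (43.9%), against 7.7%, and Hoxc9 in 27 (40.9%), against 14.02%. Hoxa5, rare in the papilla, was seen in 14 cells, of which 10 also showed Hoxa9, 9 Hoxc10 and 7 Hoxa10. Hoxb6 was seen in 0 of the 66 cells with Hoxc10, which allows a share of up to 4.55%, and in 52 of the others (19.2%, 14.7 to 24.4). It was likewise seen in 0 of the 39 cells with Hoxa10, against 17.4% of the others, and in 2 of the 50 cells with Hoxa9. Cells with Hoxc10 also showed Hoxb2 less (12.1%, against 30.6%) and Hoxc4 less (30.3%, against 47.2%), and Hoxc6 more (83.3%, against 59.04%). The cells without Hoxc10 included 32 wells under 1000 genes that showed no Hox gene, whose part in these shares was not tested. Hoxd4 was seen in 31.8% with and 31.4% without Hoxc10.

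Each of the 4 papilla plates showed this pattern. Hoxb6 was seen in 0 of 19, 0 of 15, 0 of 14 and 0 of 18 Hoxc10 cells of DP2, DP3, DP5 and DP6, and in 22.1%, 18 of 72, 9.7% and 20.3% of the other cells of these plates, while Hoxa10 was seen in 35.7% to 61.1% of Hoxc10 cells and 0% to 10.2% of the others. Cells with Hoxc10 held a median of 5945.5 genes and those without 5664, and both had a median of 8 of the 10 papilla markers (means 8.12 and 6.86). Cells with Hoxb6 held a median of 5857.5 genes. Counting how many of Hoxa9, Hoxa10, Hoxc9 and Hoxc10 a cell showed, at least 1 of Hoxb6, Hoxb7, Hoxb8 and Hoxb9 was seen in 65 cells with none of the 4 (29.7%), 11 of 57 with 1 (19.3%), 1 of 27 with 2, 1 of 27 with 3 and 0 of 7 with all 4. Median gene numbers in these 5 classes ran from 5626 to 6249, and the part of gene number in these shares was not tested. No muscle stem cell marker (Pax7, Myf5, Myod1) was seen in any papilla cell, and dermal fibroblast markers, which papilla cells share, reached 3 of 6 in 90.2% of cells, with a summed level from 0 to 108454 TPM.

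**Figure D4:**
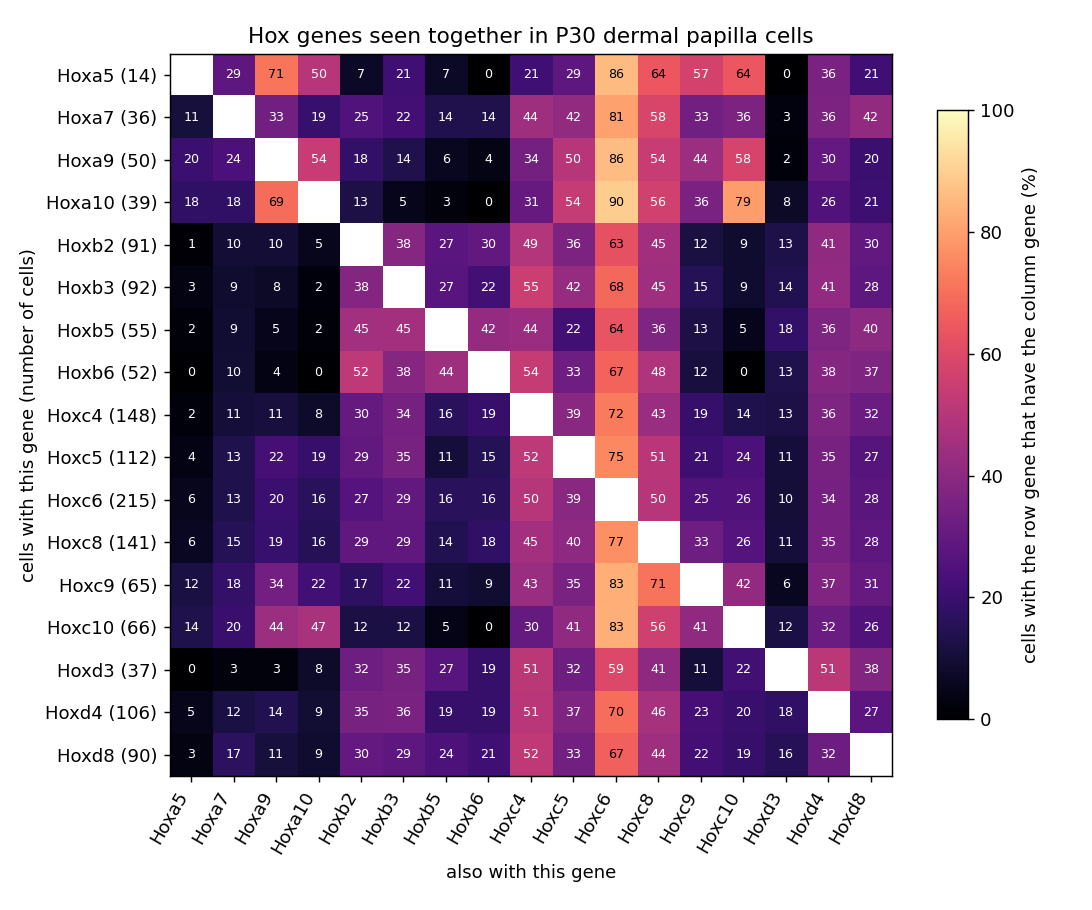
Hox genes seen together in the P30 dermal papilla cells. Each field gives the share (%) of cells with the row gene, whose number stands in brackets, that also showed the column gene. Of the 39 cells with Hoxa10, 69.2% showed Hoxa9 and 79.5% Hoxc10, and none showed Hoxb6.

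Other regional genes of the papilla were set beside these, chosen after values had been seen. Of 35 papilla cells with Tbx5, a T-box gene of the forelimb, 17 showed Hoxc10 (48.6%, 31.4 to 66.01), against 16.2% of the others, and 48.6% showed Hoxc9, against 15.9%. Hoxb6 did not differ as much (17.1% against 15.2%). Of the cells with En1, a homeobox gene of a dermal fibroblast lineage, 33.3% showed Hoxc10, against 13.6%, and 27.5% Hoxa9, against 9.4%. For Hoxa10 the intervals overlapped, at 15.7% (9.2 to 24.2) against 9.8% (6.3 to 14.3). Cells with En1 held a median of 6049 genes and the others 5626, and the part of gene number in these shares was not tested. Aldh1a1, an enzyme that makes retinoic acid, differed in the other direction for Hoxc10 and Hoxa10. Of the cells with it, 6.6% showed Hoxc10 (2.9 to 12.5), against 26.98% of the others (21.2 to 33.4), 1.6% Hoxa10, against 17.2%, and 27.9% Hoxb6 (20.1 to 36.7), against 8.4%. For Hoxc9 the intervals overlapped, at 15.6% (9.6 to 23.2) against 21.4% (16.1 to 27.5).

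In the P30 matrix, members seen rarely over the whole type gathered in a small set of cells with muscle and pericyte markers. At least 3 of 6 such markers (Acta2, Des, Rgs5, Myf5, Myod1, Pax7) were seen in 42 cells (10.9%), and 12 of these 42 also showed at least 3 of 5 keratinocyte markers. The summed level of the 6 markers ran from 0 to 4874 TPM over the type, with a median of 0. The cells were spread over the plates as 6, 13, 10, 12 and 1 (P1-3, P1-4, P1-5, P1-6 and P2-1). Of the 42, 19 showed Hoxa9 or Hoxa10 (45.2%, 29.8 to 61.3), against 7 of the others (2.05%, 0.83 to 4.17), so that this set held 19 of the 26 matrix cells with either gene. From 5 TPM on, 7 of the 42 showed either (16.7%). Hoxa10 was seen in 11 of the 42 and 1 of the others, and Hoxd9 in 8 and 1. Hoxc4 was seen in 26.2% against 2.9%, Hoxd8 in 40.5% against 12.3%, Hoxd4 in 30.95% against 9.1%, and Hoxa7 in 40.5% against 18.7%. Hoxc13 was lower, at 30.95% (17.6 to 47.1) against 85.1% (80.9 to 88.7), as was Hoxb7, at 11.9% against 46.2%. The set held a median of 6578.5 genes per cell and the rest 7372, and the part of this in the shares was not tested. Without these 42 cells, the P30 matrix showed Hoxa9 in 1.8% and Hoxa10 in 0.3% of cells.

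**Figure D5:**
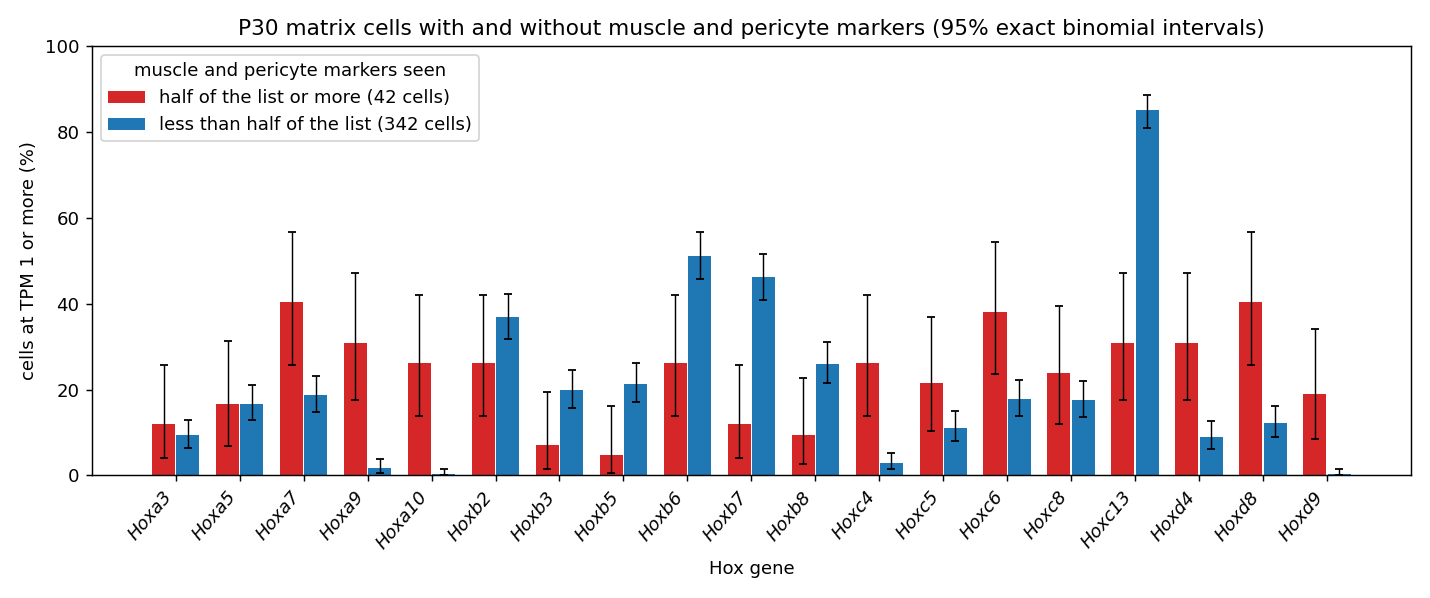
Share of P30 matrix cells (%) in which a Hox gene was seen, for the members at 10% or more of either set, in the 42 cells with at least 3 of 6 muscle and pericyte markers (red) and the others (blue). Error bars are 95% exact binomial intervals over cells. Hoxa9 stood at 30.95% against 1.8% and Hoxc13 at 30.95% against 85.1%.

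Other markers divided the P30 matrix as well, for Hoxc13. By the 7 matrix markers other than Hoxc13 itself, cells that showed at least 4 had Hoxc13 in 90.4%, against 30.6% of the other 72. Among the cells with at least 3 of 5 keratinocyte markers the share was 86.99%, against 54.3% of 92, and among the 38 cells with at least 3 of 6 dermal fibroblast markers 19 had it, against 82.4% of the others.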

How the data were processed

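Single cells of mouse back skin were measured by Smart-seq2. The authors deposited 3 tables of TPM per gene and cell, made with Bowtie2 2.2.9 and RSEM 1.2.30 on mm10, per the submitters' processing notes. Each cell summed to about 1000000 TPM, so depth in reads is unknown. In the papilla table a literal separator other than a tab had to be read. Cell types came from the authors' deposited annotation and plates from the sample titles. No 2 cells held identical values.

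A gene was seen at a TPM of 1 or more. Shares carry exact binomial (Clopper-Pearson) 95% intervals, and a share of 0 the limit that 3 cells would give. Differences between types are differences of mean log2(TPM + 1), a scale that understates changes of low genes, without the 360 ribosomal RNA, 92 spike-in and 35 mitochondrial rows, and are counted from 1 on. With 1 sample a type, no test was run. Genes named are every member that reached 10% of cells in 1 type, those at 30% with values by plate, the 5 genes most like Hoxc13 and Hoxc6, and up to 4 members of each other list. The members and lists were chosen with earlier results of these data known. The pairs of genes in single cells and the cells split by Tbx5, En1, Aldh1a1, Krtap8-1, Tchh, Lgr5, Mki67, Mlana or muscle markers were chosen after seeing the data. Positions are from GENCODE M21. Python 3.11.15, numpy 2.4.6, pandas 2.3.3 and scipy 1.17.1 were used, and the comparison was checked on simulated data. Some genes of these lists are not reported here by name.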

Additional observations from a re-analysis of the deposited data

How the results depend on the processing

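No paired analysis was possible because no result came from a test. Of 230 values recomputed under the alternatives, 26 of the main results and 1 other moved beyond the spread set for them. The share of cells with Hoxc13 moved at a TPM of 5 or more to 43.8% (first anagen hair germ), 74.2% (P30 matrix) and 1.78% (papilla). In second anagen matrix cells with at least 5000 genes it was 55.7%. Leaving out 1 plate each time gave 31.2% (without 902hg) to 69.3% in the first anagen hair germ and 32.5% (without 915mat) to 50.7% in the second anagen matrix. Without the 42 cells with muscle and pericyte markers, an alternative chosen after seeing the data, the P30 matrix stood at 85.1%. The number of members seen in the P30 matrix was 7 at a TPM of 5 or more, and at 20% of cells it was 7 there and 8 in the papilla. Counts of members past the difference, 0, 0, 0, 2 and 4 in the order of the report, became 1, 4, 4, 5 and 11 with a pseudocount of 0.1. With a difference of 0.5 they became 1, 5, 2, 5 and 11. After rescaling they became 1 (bulge), 3 (first anagen), 4 (P30 matrix) and 8 (papilla). The bulge count was also 1 in cells with at least 5000 genes, and Hoxa5 was the gene in each case. The first anagen count ran from 0 to 2 when a plate was left out. Hoxa9 or Hoxa10 was seen in 7 of the 42 matrix cells (16.7%) at a TPM of 5 or more. TPM keeps no depth in reads, so how far depth limits each share is not known.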

Other observations

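The partners and regulators of the Hox genes were described from lists. Of 9 cofactors of the Pbx and Meis families, 7 were frequent enough to be counted between papilla and P30 matrix, of which 4 were higher in the papilla and 0 lower, among them Meis1 by 3.06, Meis2 by 1.87 and Meis3 by 1.57 in mean log2(TPM + 1). Over all genes 7.79% were higher. The median cofactor, which was Meis3, stood at 1.57 and the median gene at -0.34. Meis1 was seen in 85.8% of papilla and 35.2% of P30 matrix cells. In the other 4 comparisons no cofactor reached a difference of 1.

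Of 16 Polycomb genes, 8 were lower in the papilla than in the P30 matrix and 0 higher (median -0.97), where 21.3% of all genes were lower (38.6% after rescaling), among them Ezh2, the H3K27 methyltransferase (-2.22), Mtf2 (-1.72), Jarid2 (-1.64) and Cbx2 (-1.58). In the P30 matrix 4 of 16 were higher than in the second anagen matrix (Jarid2 2.23, Ezh2 1.10, Mtf2 1.07 and Phc1 1.00), where 8.29% of all genes were (27.3% after rescaling). Phc1 could be counted only through its share in the P30 matrix, so that its direction was fixed. In the first anagen against the telogen hair germ 5 of 15 were lower, where 5.05% of all genes were, including Ezh1 (-1.96) and Pcgf2 (-1.37). Of 10 trithorax and H3K27 demethylase genes, 5 were lower in the papilla than in the P30 matrix, led by Dpy30 (-1.97) and Wdr5 (-1.33), with a list median of -1.02, beside the same 21.3% of all genes.

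Retinoic acid acts on Hox genes in the embryo, and of 18 genes of its pathway 13 were counted between P30 and second anagen matrix. Of these 6 were higher, with the retinol receptor Stra6 (4.78) and the synthesis enzyme Aldh1a3 (4.00) first, and 1 lower, around a median of 0.80, where 8.29% of all genes were higher and 4.21% lower around 0.24. Aldh1a1, Aldh1a3, Crabp1 and Rarb were counted only through the P30 matrix and Crabp2 only through the second anagen matrix. Their direction was thus fixed. In the papilla against the P30 matrix 5 of 14 were higher, among them the binding proteins Crabp1 (6.56) and Crabp2 (3.14), and 3 lower, among them Stra6 (-4.81) and Aldh1a3 (-3.76), around a median of 0.10, where 7.79% of all genes were higher and 21.3% lower. Here Crabp2 and Cyp26b1 were counted only through the papilla and Aldh1a3 only through the P30 matrix, again in a fixed direction. Of 25 noncoding and flanking genes of the clusters 19 had a row. Between papilla and P30 matrix 4 of these were counted, of which 1 was higher and 0 lower, where 7.79% of all genes were higher. The higher one was Hoxd3os1 (1.21), seen in 44.2% of papilla cells. With 4 genes counted, no statement about the list follows. Hoxd3os1 shares exonic bases with Hoxd3 and Hoxd4 on the opposite strand, and their part in its value was not tested.

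Among 20 other regional homeobox and T-box genes, Prrx1 (4.81) and Alx4 (4.70) were higher and Dlx3 (-5.11) and Msx2 (-3.32) lower in the papilla than in the P30 matrix, and Tbx15 was seen in 74.5%, En1 in 30.3% and Tbx5 in 10.4% of papilla cells. Alx4 could be counted only through its share in the papilla and Dlx3 only through that in the P30 matrix, which fixed their direction. Of 13 hair shaft genes counted between P30 and second anagen matrix, 8 were higher and 0 lower (median 1.21), where 8.29% of all genes were higher (27.3% after rescaling, median 0.24 before it), led by Padi3 (4.72), Dlx3 (4.69), Foxq1 (3.33) and Msx2 (3.30). Krt35, Krt81, Krt83, Krt86, Krtap8-1, Dsg4 and Padi3 could be counted only through their share in the P30 matrix, so that their direction was fixed. So was that of Krt32, counted only through the second anagen matrix.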
